A study of Mus musculus with 4 samples.

Results

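The Hippo pathway is a kinase cascade that restrains a pair of transcriptional co-activators, YAP (gene Yap1) and TAZ (gene Wwtr1). When the kinases LATS1 and LATS2 are active they phosphorylate YAP and TAZ, which are then held in the cytoplasm or degraded; when the cascade is quiet, YAP and TAZ enter the nucleus and act through the DNA-binding TEAD factors, which recognise the M-CAT element, a motif found in many muscle gene promoters. In the heart the pathway is known for limiting cardiomyocyte proliferation, and TEAD1 for its role in the transcription of contractile genes. Because YAP and TAZ are controlled mainly as proteins, the transcript levels given here describe the supply of the components and not the activity of the pathway.

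A set of 10 genes of this pathway, out of 22322 in the expression files, was chosen by gene symbol: Yap1, Wwtr1, the TEAD genes Tead1, Tead2, Tead3 and Tead4, the TEAD cofactor gene Vgll4, the kinase genes Lats1 and Lats2, and Amotl2, which encodes an angiomotin-like protein that binds YAP. The rule uses no measured value, although the genes were picked with earlier results of these data known. Their transcripts were compared between cardiomyocytes of sham-operated mice and those of mice after transverse aortic constriction (TAC), in which the narrowed aorta overloads the left ventricle, to describe the components in the failing heart. There were 2 libraries per group, named sham 1, sham 2, TAC 1 and TAC 2. The animals were male and carried no genetic change named in the labels, and the TAC mice were at the heart-failure stage. The myocytes were isolated by perfusion of the heart and a library used part of the myocytes of a single heart, so that a library stands for 1 animal. By the methods of the study the mice were young adults at the operation and were taken weeks later. Strain is not given in the labels used here.

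The libraries held 28844755, 27678165, 32118323 and 24237777 expected counts in sham 1, sham 2, TAC 1 and TAC 2, and genes of the mitochondrial genome took 47.4% of TAC 1 against 39.8% to 40.9% of the others. Cardiomyocyte markers were abundant in all 4 libraries, with Myh6, the adult cardiac myosin heavy chain gene, at 23196 to 29438 CPM (counts scaled to a common library size with TMM factors, which set the bulk of genes equal between libraries). Markers of other cell types were also present, none of them at 0, and their sums were lower in TAC; their values are given beside Amotl2 and the other genes that were lower. The choice of scaling mattered, since over the 12499 genes tested the median log2 fold change was -0.01 with TMM and -0.20 with total counts, which is the scaling named by the study, so the value under total counts is also given for the 10 genes, and elsewhere where the sign or the order of the groups differs. With 2 libraries per group the smallest p that exact permutation of the samples can give is 0.33, and the tests given are therefore those of edgeR's quasi-likelihood fit across all genes, with Benjamini-Hochberg adjustment.

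Coordinates of the 10 genes are given on GRCm38, the build that the processing notes name as mm10, from the GENCODE annotation. The co-activator genes are Yap1 (chr9:7931999-8004596) and Wwtr1 (chr3:57455649-57575910), both on the minus strand. The TEAD genes are Tead1 (chr7:112679318-112906807) and Tead2 (chr7:45215753-45233644) on the plus strand, and Tead3 (chr17:28331671-28350817) and Tead4 (chr6:128224288-128300823) on the minus strand. Vgll4 (chr6:114860628-114969994) and Lats2 (chr14:57689662-57758388) are on the minus strand, and Lats1 (chr10:7681214-7716460) and Amotl2 (chr9:102716672-102733418) on the plus strand. Values are per whole gene, so that no exon or isoform is singled out.

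The promoter windows of these genes were searched for the core of the M-CAT element, and the stretches around it are shown because these are the letters that TEAD factors recognise. Windows of 250 bases before to 50 bases after a start site were taken from RefSeq (GRCm38.p6); 8 of the 10 genes had 1 or more, and Tead1 and Tead4 had none in the table. The letters searched were CATTCC on either strand (GGAATG on the other); each sequence is printed 5′ to 3′ on the strand of the gene, with these letters in capitals. The letters occurred in the windows of 6 of the 8 genes (Yap1, Wwtr1, Tead3, Vgll4, Lats2 and Amotl2), while 16.6% of the 27025 genes with a window held them; the windows of Tead2 and Lats1 did not. Sites upstream of the start are printed for Yap1 (chr9:8004702-8004767, minus strand), Wwtr1 (chr3:57576011-57576076, minus strand), Tead3 (chr17:28350952-28351017, minus strand), Vgll4 (chr6:114969250-114969315, minus strand) and Amotl2 (chr9:102717709-102717774, plus strand).
Yap1: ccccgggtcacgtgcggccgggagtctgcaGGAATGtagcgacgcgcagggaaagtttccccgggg
Wwtr1: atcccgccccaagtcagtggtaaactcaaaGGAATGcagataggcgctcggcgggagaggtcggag
Tead3: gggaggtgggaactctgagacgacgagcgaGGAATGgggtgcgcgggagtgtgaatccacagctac
Vgll4: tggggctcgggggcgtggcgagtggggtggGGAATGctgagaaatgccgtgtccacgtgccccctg
Amotl2: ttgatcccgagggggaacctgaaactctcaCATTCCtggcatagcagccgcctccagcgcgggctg
The capitals begin at position -141 from the start site in Yap1, -82 in Vgll4 and -65 in Amotl2. The Tead3 stretch begins its capitals at -182, and a different start site of Tead3 had further matches at -123 and -114 and 1 just past the start. The Wwtr1 match is a single genomic site that lies at -136 or -170, depending on which of its start sites is used. In Lats2 the match also lay just past the start site. None of the 12 windows held the AP-1 letters TGANTCA, which were present in 9.0% of genes with a window. A match is a description of letters and not evidence that a factor binds there, and the windows of these genes ran from 44.8% to 76.8% GC, against a median of 52.4% over all windows.

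Per length, Tead1 was the most abundant of the 10 transcripts and Tead4 the least. On the deposited FPKM scale (fragments scaled by gene length and library size), the mean of the 4 libraries was 19.9 for Tead1, 16.9 for Yap1, 11.1 for Amotl2, 7.44 for Wwtr1, 4.42 for Lats2, 2.33 for Tead3, 2.26 for Vgll4, 1.20 for Lats1, 0.718 for Tead2 and 0.26 for Tead4. The ranges of neighbours in this order overlapped for Amotl2 and Wwtr1 (6.61 to 14.5 and 5.36 to 8.91 FPKM) and for Wwtr1 and Lats2 (Lats2 3.32 to 5.4 FPKM), although the first of each pair was higher in all 4 libraries. Tead3 and Vgll4 could not be ordered, since each was the higher in 2 libraries. The other neighbours were apart. The co-activator YAP and the factor TEAD1 were thus represented at higher FPKM than the LATS kinase transcripts in every library.

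**Figure D1:**
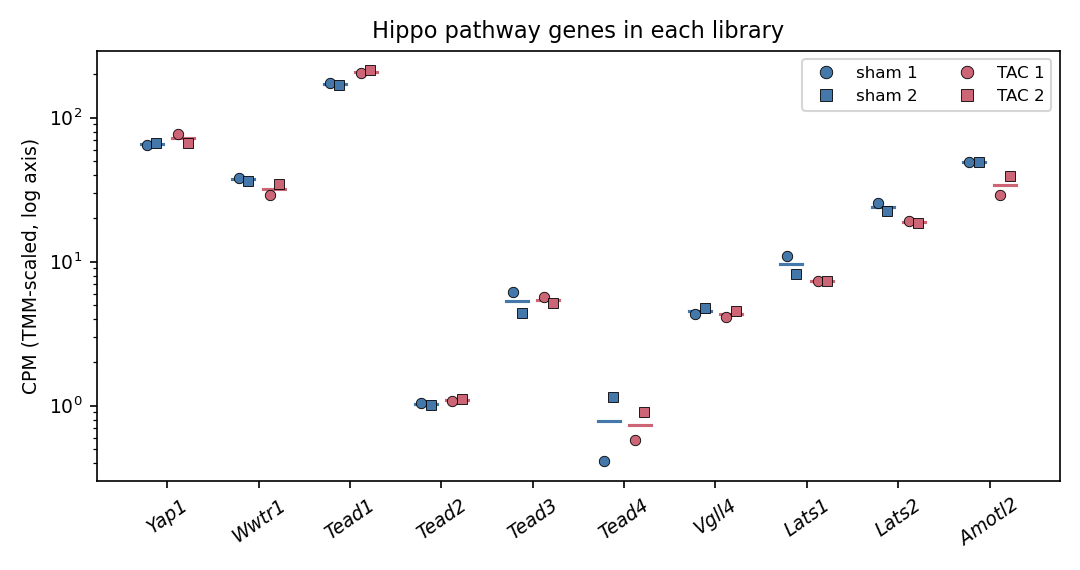
Level of each of the 10 genes by library (y axis, CPM with TMM factors, log scale; blue sham, red TAC, circles replicate 1, squares replicate 2, lines the group means); CPM does not correct for length, so heights of different genes are not compared. Both TAC points of Tead1 (203 and 213 CPM) lie above both sham points (174 and 168 CPM), and both of Amotl2 (29.1 and 39.1 CPM) below (49.6 and 48.9 CPM).

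None of the 10 genes passed an adjusted p of 0.05 between TAC and sham, where 5.01% of all tested genes did (2.58% higher in TAC and 2.43% lower). Over all genes these calls were 322 higher and 304 lower with TMM, and 105 higher and 423 lower with total counts. Of the 10, the nearest to the threshold were Amotl2, which encodes a scaffold that binds YAP (log2 fold change -0.53), Tead1 (0.28) and the kinase gene Lats2 (-0.34). These 3 had an unadjusted p under 0.05, as did 27.5% of all genes, and the same 3 passed an adjusted p of 0.1, as did 14.5%. A second tool, DESeq2, called Tead1 and Amotl2 at an adjusted p of 0.05 (it gave none to Tead2 and Tead4), where it called 8.34% of the 11045 genes it gave an adjusted p. With total-count scaling edgeR called none, against 4.22% of all genes, and with TMM it called 1, Amotl2, when TAC 2 was left out, against 10.3% of all genes in that setting. In 7 of the 10 genes the groups did not overlap, with TAC above in 3 and below in 4, a share near the 60.1% of all genes in which this was so. With total-count scaling this became 6 of 10, all below, against 56.4%. The median log2 fold change of the 10 was -0.07 with TMM and -0.25 with total counts, against -0.01 and -0.20 over all genes. This median rested on single libraries, running from -0.02 without TAC 1 to -0.22 without TAC 2 with TMM, and from -0.10 to -0.52 for the same omissions with total counts. Over all genes these omissions gave medians of -0.021 and -0.013 with TMM, and of -0.103 and -0.315 with total counts.

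The TEAD factors bind DNA and carry YAP and TAZ to their targets. Tead1, by far the main TEAD transcript here, stood at 174 and 168 CPM in sham 1 and sham 2, and at 203 and 213 CPM in TAC 1 and TAC 2. Both TAC libraries were above both sham libraries. Its log2 fold change was 0.28 ± 0.07 (SE; 1.22-fold; adjusted p = 0.0642, edgeR). Total-count scaling reduced it to 0.10 (edgeR adjusted p = 0.705) and the libraries then overlapped, yet relative to the median gene the difference was 0.29 under TMM and 0.30 under total counts. DESeq2 gave an adjusted p of 0.0394 for Tead1. Omitting any 1 library left the log2 fold change between 0.25 and 0.32.

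Tead3 was present at 6.16, 4.41, 5.67 and 5.15 CPM in sham 1, sham 2, TAC 1 and TAC 2, and the groups overlapped (log2 fold change 0.03 ± 0.21, adjusted p = 0.938, edgeR). Tead2 and Tead4 were close to the limit of what these libraries could measure. Tead2 had 33, 29, 30 and 27 counts and Tead4 had 13, 33, 16 and 22 counts in the same order. The log2 fold change was 0.09 ± 0.34 for Tead2 and -0.08 ± 0.56 for Tead4, errors so wide that a change of the size seen in Tead1 was not detectable at this depth. The sign for Tead3 and Tead2 turned negative with total counts (-0.17 and -0.10), and Tead4 was at -0.24. FPKM of Tead2 carries a further limit, since the gene length implied by its counts and FPKM ran from 1330 to 1987 bases between libraries, and 13 bases of its exons overlap Cd37, a gene on the opposite strand with 6 to 21 counts.

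Within the family, Tead1 made up 83.3% and 85.4% of the summed TEAD FPKM in sham 1 and sham 2, and 87.1% and 87.3% in TAC 1 and TAC 2. The TAC values were above the sham values, by 2.86 percentage points on average and by 1.84 without sham 1. Tead3 took 12.4%, 9.34%, 9.96% and 8.45%, and Tead2 and Tead4 took at most 3.59% and 1.90% in any library. The summed TEAD FPKM itself, at 23.95 and 21.6 in sham and 21.6 and 25.8 in TAC, overlapped between the groups. No test was run on the difference in share.

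**Figure D2:**
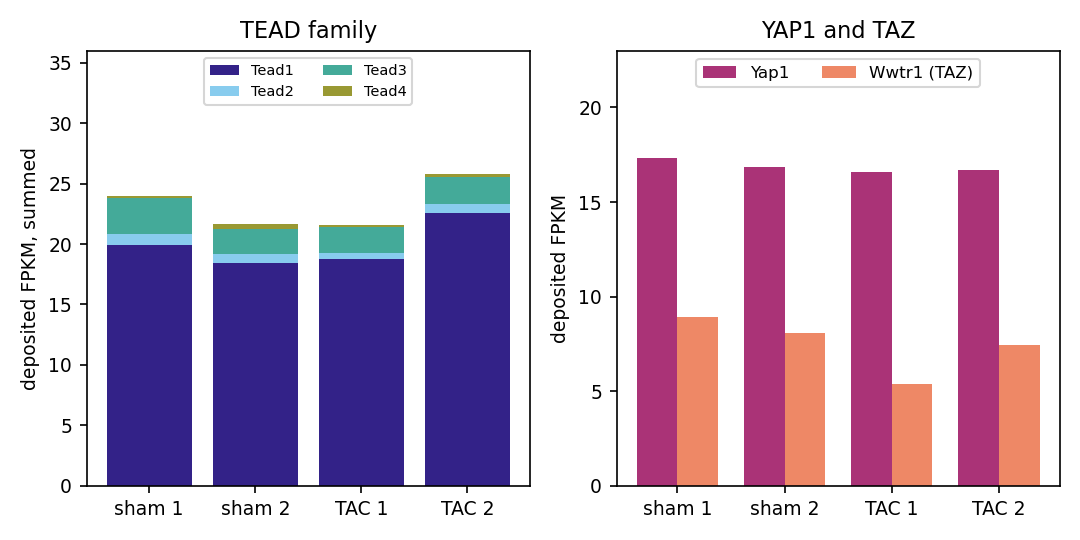
Left, deposited FPKM of Tead1 to Tead4 stacked by library; right, deposited FPKM of Yap1 and Wwtr1 by library (bars start at 0, and each bar is 1 library with no error). Tead1 fills 83.3% to 87.3% of every stack, and the Wwtr1 bar is lowest in TAC 1, at 5.36 FPKM.

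The co-activators YAP and TAZ are close paralogs that share most of their binding partners, and neither transcript passed the threshold. Yap1 stood at 64.6 and 66.4 CPM in sham and at 77.3 and 67.0 CPM in TAC 1 and TAC 2. TAC 2 was only just above the sham libraries. With edgeR the log2 fold change was 0.14 ± 0.09 (adjusted p = 0.342) with TMM and -0.05 (adjusted p = 0.824) with total counts, and both TAC libraries then lay below the sham libraries. With TMM it was 0.03 without TAC 1 and 0.24 without TAC 2. No direction can therefore be given for Yap1, and 116 bases of its exons overlap a transcript on the opposite strand, Gm20416.

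Wwtr1, the gene for TAZ, stood at 38.1 and 36.4 CPM in sham, 29.0 CPM in TAC 1 and 34.6 CPM in TAC 2. Both TAC libraries were below the sham libraries, TAC 1 by much more than TAC 2. The log2 fold change was -0.23 ± 0.10 (adjusted p = 0.204, edgeR) and -0.41 (adjusted p = 0.163) with total counts. Without TAC 1 it was -0.11. The FPKM ratio of Yap1 to Wwtr1, which needs no scaling between libraries, was 1.94 and 2.09 in sham 1 and sham 2, and 3.09 and 2.24 in TAC 1 and TAC 2. The mean difference in log2 ratio was 0.39, and it rested largely on TAC 1, as it was 0.15 without that library.

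LATS1 and LATS2 are the kinases that phosphorylate YAP and TAZ, and both of their transcripts were lower in the TAC libraries without passing the threshold. Lats2 stood at 25.4 and 22.4 CPM in sham and at 19.3 and 18.6 CPM in TAC 1 and TAC 2. The groups did not overlap. For Lats2 the fit gave a log2 fold change of -0.34 ± 0.11 (adjusted p = 0.097, edgeR) with TMM, -0.53 (adjusted p = 0.074) with total counts, and -0.24 to -0.42 when 1 library was left out. Lats2 shares 2955 exon bases with Gm49361 on the same strand, a gene model with no counts in the 4 libraries, and the length implied by its FPKM differed between libraries by 18.7%.

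Lats1 stood at 11 and 8.24 CPM in sham and at 7.39 and 7.36 CPM in TAC. Sham 1 was well above the other 3 libraries. Its log2 fold change was -0.38 ± 0.17 (adjusted p = 0.196, edgeR), and it was -0.58 with total counts and -0.16 without sham 1. Lats2 was the more abundant kinase transcript in every library, with a log2 FPKM ratio over Lats1 of 1.69 and 1.97 in sham and 1.90 and 2.07 in TAC, so that the balance of the kinases overlapped between the groups.

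Amotl2 and Vgll4 encode proteins that restrain YAP and TEAD in different ways, AMOTL2 by binding YAP outside the nucleus and VGLL4 by competing for TEAD. Amotl2 is also itself induced by YAP and TAZ, and is known for a role at endothelial cell junctions. It stood at 49.6 and 48.9 CPM in sham and at 29.1 and 39.1 CPM in TAC 1 and TAC 2. The sham libraries were nearly equal and both TAC libraries were below them. The log2 fold change of -0.53 ± 0.13 was the largest in size of the 10 (0.69-fold, adjusted p = 0.0628, edgeR), and it was -0.71 (adjusted p = 0.0603) with total counts. DESeq2 gave an adjusted p of 0.00993. Without TAC 2 edgeR called it, at -0.76 (adjusted p = 0.00328), and without TAC 1 it was -0.33 (adjusted p = 0.142). Over the alternatives other than the omission of a library under total counts, the adjusted p ran from 0.00328 to 0.142. Under total counts Amotl2 was called without sham 2, without TAC 1 and without TAC 2, but not without sham 1.

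Vgll4 stood at 4.30 and 4.76 CPM in sham and at 4.13 and 4.54 CPM in TAC. The groups overlapped with TMM, and the log2 fold change was -0.06 ± 0.18 (adjusted p = 0.848, edgeR), or -0.25 (adjusted p = 0.565) with total counts, where both TAC libraries were lower. Vgll4 had 111 to 137 counts per library.

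**Figure D3:**
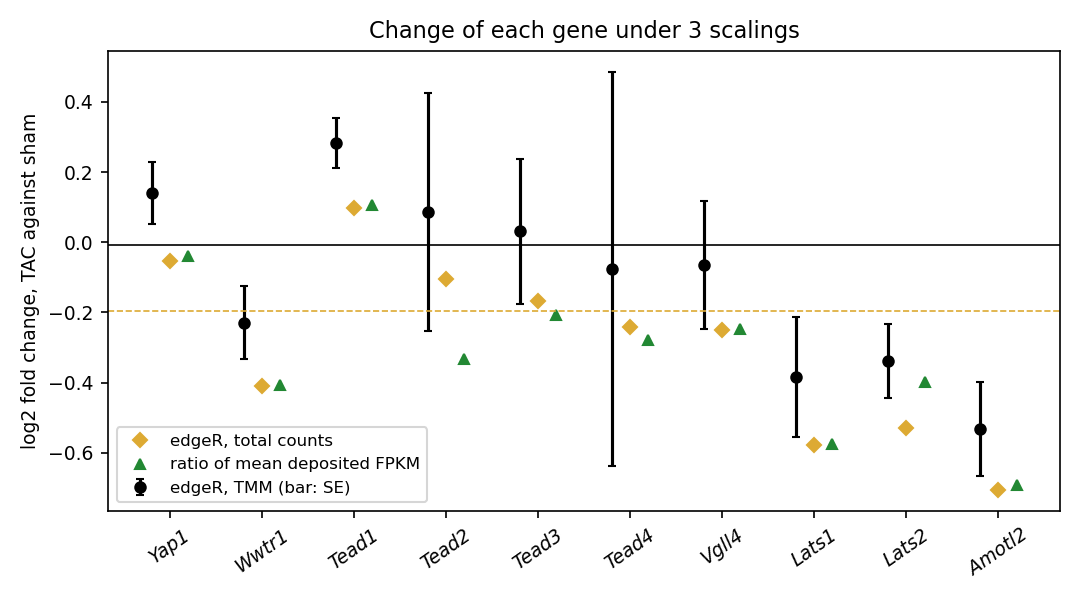
Log2 fold change of TAC against sham (y axis) for each of the 10 genes from edgeR with TMM (black circles, bars of 1 SE), edgeR with total counts (yellow diamonds) and the ratio of mean deposited FPKM (green triangles); the solid and dashed lines mark the median of all 12499 genes with TMM (-0.01) and total counts (-0.20). Amotl2 is lowest and Tead1 highest under each of the 3.

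Among all genes tested, the fold change of Tead1 was at percentile 86.6 and that of Amotl2 at 14.1, so that neither was extreme in these libraries. Lats1 was at percentile 20.2 and Lats2 at 22.4. The percentiles moved by less with the scaling than the fold changes did, since total counts shifted the bulk of genes together: Yap1 was at 69.8 with TMM and at 69.0 with total counts.

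Markers of non-myocyte cells were lower in the TAC libraries, as Amotl2, Wwtr1 and the Lats transcripts were. The summed CPM of 15 endothelial markers was 790.6 and 631.1 in sham 1 and sham 2 and 380.9 and 531.4 in TAC 1 and TAC 2, with all 15 fold changes negative, 3 of them called (median log2 fold change -0.63). Cdh5, the endothelial cadherin gene, fell from 115 and 99.9 CPM in sham to 52.9 and 66.4 CPM in TAC (adjusted p = 0.0149, edgeR). The 10 fibroblast markers summed to 253.9, 181.3, 105 and 142.7 CPM (median -0.83, 3 called), the 10 mural markers to 757.7, 796.2, 440.4 and 579 CPM (median -0.78, 2 called), and the 11 macrophage markers to 138.3, 70.8, 38.1 and 70.7 CPM (median -0.90, none called by edgeR and 1, Cd163, by DESeq2; 6 had an unadjusted p under 0.05). Over all genes 2.43% were called lower. These counts of calls depended on single libraries, as did the share of all genes called, which ran from 2.34% when TAC 1 was omitted to 10.3% when TAC 2 was, with 4.55% and 5.8% for the omission of sham 1 and sham 2. Leaving out 1 library gave 1 (TAC 1) to 14 (TAC 2) endothelial calls, 0 (TAC 1) to 7 (sham 2 or TAC 2) fibroblast calls and 0 (TAC 1) to 8 (TAC 2) mural calls. For macrophage markers it gave 8 without sham 2, 6 without TAC 2 and 0 otherwise, and their median was -0.36 without sham 1. Without TAC 1 the mural median was -0.48 and the endothelial and fibroblast medians were -0.42 and -0.61. No marker of these 4 lists was at 0 in any library. Amotl2 and Wwtr1 were highest in sham 1 and lowest in TAC 1, as were the endothelial, fibroblast and macrophage sums, while the mural sum was highest in sham 2. Lats1 was nearly equal in TAC 1 and TAC 2 (7.39 and 7.36 CPM), and Lats2 was at 19.3 and 18.6 CPM. The 10 cardiomyocyte markers summed to 70983, 79212, 74691 and 72105 CPM, and their median was 0.04 with TMM and -0.145 with total counts. They went both ways: edgeR with TMM called none, and DESeq2 called 3 higher and 1 lower, against 8.34% of all genes. The part of non-myocyte RNA in the lower Amotl2, Wwtr1, Lats1 and Lats2 was not tested, and in bulk samples fewer cells of a type cannot be told apart from less RNA per cell.

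Immediate early genes, which respond quickly to stimuli, also differed: the 17 of them summed to 1119 and 661.7 CPM in sham and 285.2 and 273 CPM in TAC, and 9 of them fell, among them Fos and Jun, against 2.43% of all genes. Their part in the values of the Hippo genes was not tested.

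**Figure D4:**
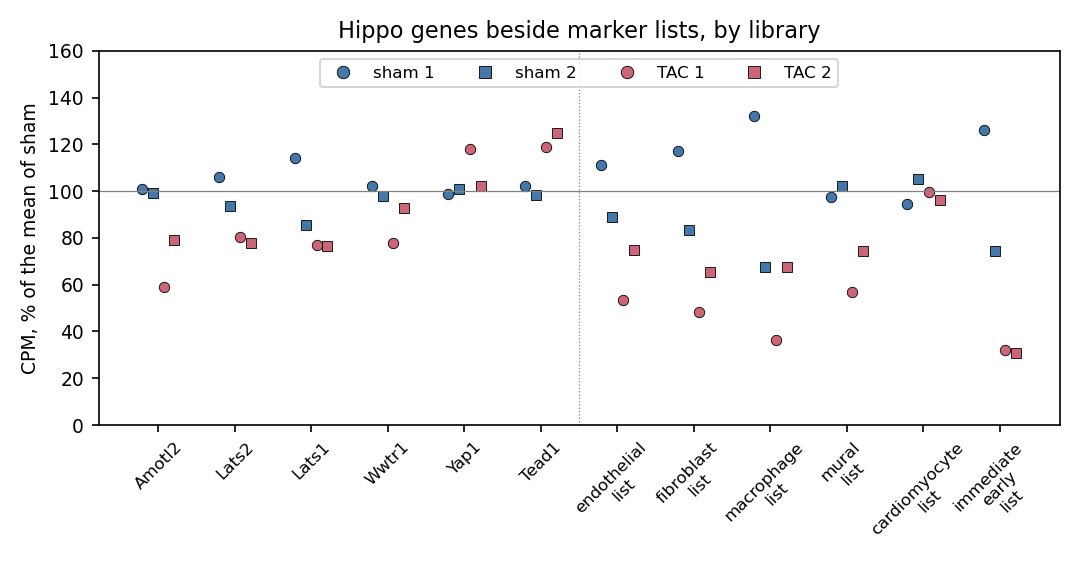
Level in each library as a percent of the mean of the sham libraries (y axis, CPM basis; blue sham, red TAC, circles replicate 1, squares replicate 2) for 6 Hippo genes, left of the dotted line, and for the summed markers of 6 lists, right of it. Amotl2 stands at 59.1% and 79.3% in TAC 1 and TAC 2, the endothelial sum at 53.6% and 74.8%, and the cardiomyocyte sum at 99.5% and 96.0%.

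From 41 other components listed by role, 39 passed the low-count filter and 1 was called, Ppp2ca (2.56%, against 5.01% of all genes), and their median log2 fold change was -0.06. Without sham 1 or TAC 1 none was called (against 4.55% and 2.34% of all genes). Without sham 2 the 2 calls were Fat4 and Dchs1 (against 5.8% of all genes), and without TAC 2 the 4 calls were Fat4, Ppp2ca, Stk38 and Vgll2, a share of 10.3% that equals the 10.3% of all genes. Ppp2ca encodes the catalytic subunit of protein phosphatase 2A, which in the STRIPAK complex counters the Hippo kinases. It stood at 155 and 154 CPM in sham and rose to 203 and 191 CPM in TAC (0.35 ± 0.07, adjusted p = 0.0416, edgeR), but it was 0.16 with total counts (edgeR adjusted p = 0.452) and the call was lost when sham 1, sham 2 or TAC 1 was left out (edgeR adjusted p = 0.0822, 0.0820 and 0.144). All other 7 STRIPAK genes tested were uncalled, and the list of 8 had a median of 0.14 with 6 genes whose TAC libraries were both higher and none in which both were lower (75%, against 60.1% of all genes in either direction). With total counts 7 of the 8 had a negative fold change.

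The upstream kinase module gave no call among its 13 genes (median -0.09; 2 had an unadjusted p under 0.05). For this list and the scaffold and degradation lists the shares over all genes are 5.01% called and 27.5% at an unadjusted p under 0.05. The MST kinases stood at -0.46 ± 0.20 for Stk3 (adjusted p = 0.190) and -0.07 ± 0.11 for Stk4 (adjusted p = 0.727) by edgeR. Their adaptor Sav1 was at -0.27 (edgeR adjusted p = 0.220), and the LATS cofactors Mob1a and Mob1b were at -0.12 and 0.07, the sign of Mob1b turning with total counts. Among 12 scaffold and upstream regulator genes tested none was called (median -0.16; 1 had an unadjusted p under 0.05). The cadherin genes Fat4 (-0.86) and Dchs1 (-0.52 with overlapping groups, and -0.71 with total counts, where both TAC libraries were lower), named after their values were seen, were called without sham 2, and Fat4 also without TAC 2. Nf2, the gene of the membrane-linked activator merlin, was at -0.11 (edgeR adjusted p = 0.459) with overlapping groups, and at -0.29 with total counts, where both TAC libraries were lower. The 4 genes for degradation of YAP and TAZ gave no call, with 1 at an unadjusted p under 0.05, and DESeq2 called none in these 3 lists either.

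Of the other Vgll cofactors, which bind TEAD through the same face as YAP, Vgll2 is expressed mainly in skeletal muscle. It had 3 and 4 counts in sham and 31 and 12 counts in TAC 1 and TAC 2. The log2 fold change was 2.76 ± 0.67 (adjusted p = 0.0581, edgeR), based on few counts. Its adjusted p was 0.0319 without TAC 2, 0.335 without TAC 1, 0.156 without sham 1 and 0.0853 without sham 2 (edgeR). Vgll3 was at -0.49 ± 0.38 (edgeR adjusted p = 0.434), and Vgll1 had no count in any library, which allows up to 3 counts per library. At an adjusted p of 0.1 Vgll2, the kinase gene Stk38 (0.39) and the ubiquitin ligase gene Fbxw11 (0.36, with overlapping groups under total counts) were added to Ppp2ca; the latter 2 were named after their values were seen. These 4 of 39 stand against 14.5% of all genes at that threshold.

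**Figure D5:**
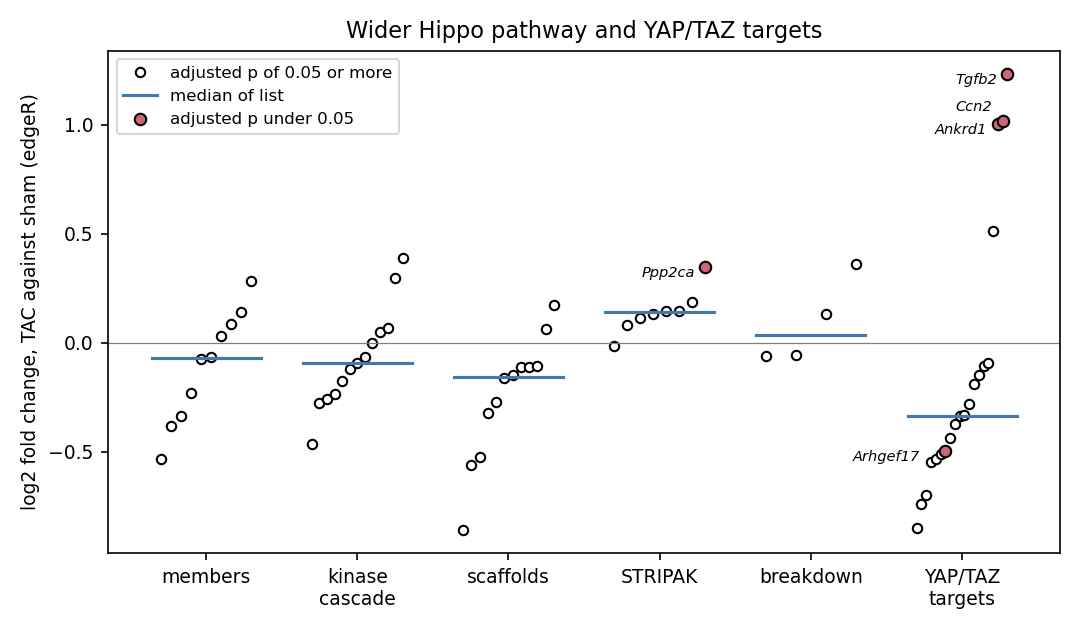
Log2 fold change of TAC against sham (y axis, edgeR with TMM) of every tested gene of the 10 (labelled members), of 4 other Hippo lists and of the target list, with blue lines for list medians; the other Vgll genes and the M-CAT muscle genes are not drawn. Filled red points passed an adjusted p of 0.05: Ppp2ca at 0.35, Tgfb2 at 1.23, Ccn2 at 1.02, Ankrd1 at 1.00 and Arhgef17 at -0.50.

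Genes known as YAP and TAZ targets in other cells changed in both directions. Of 22 listed, 20 were tested and 4 were called, 3 higher and 1 lower in TAC, against 5.01% of all genes, while 16 of 20 had a negative fold change, with a median of -0.34 (-0.52 with total counts) against -0.01 over all genes. The groups did not overlap in 17 of the 20, against 60.1% of all genes, and 7 were called when TAC 2 was left out, against 10.3% of all genes. The endothelial, fibroblast and mural lists had medians of -0.63, -0.83 and -0.78, and their part in the values of the target list was not tested. Amotl2 and Lats2 belong to this list as well as to the 10, since both are induced by YAP and TAZ.

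The genes that rose were Ccn2, Ankrd1 and Tgfb2. Ccn2, which encodes connective tissue growth factor, stood at 44.1 and 52.2 CPM in sham and at 110 and 84.5 CPM in TAC (1.02 ± 0.14, adjusted p = 0.0127, edgeR). Ankrd1, which encodes a cardiac ankyrin repeat protein of the sarcomere and nucleus, stood at 887 and 1151 CPM in sham and at 2225 and 1862 CPM in TAC (log2 fold change 1.00 ± 0.14, adjusted p = 0.0149). Tgfb2, a transforming growth factor gene, stood at 6.64 and 7.09 CPM in sham and at 16.1 and 16.2 CPM in TAC (1.23 ± 0.12, adjusted p = 0.00492). In each of these genes both TAC libraries were above both sham libraries under both scalings. With total counts and without sham 1 only Tgfb2 of the target list was called, and 1.85% of all genes were.

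Arhgef17 fell from 52.6 and 55.8 CPM in sham to 39.8 and 36.9 CPM in TAC (-0.50 ± 0.08, adjusted p = 0.0246, edgeR; 0.0518 without sham 2; log2 fold change -0.69 with total counts). Ccn1, which is also known to be induced by YAP, was not called, with 159 and 128 CPM in sham and 151 and 118 CPM in TAC (-0.09 ± 0.14, adjusted p = 0.706). The groups overlapped for Ccn1 with TMM, while with total counts both TAC libraries were lower (-0.30, edgeR adjusted p = 0.247). The window of Ankrd1 held the TEAD core at 2 places (chr19:36120019-36120084 and chr19:36119932-36119997, minus strand, capitals beginning at -210 and -123) and that of Ccn1 at 1 (chr3:145650053-145650118, minus strand, at -103), while Ccn2 and Arhgef17 had no window in the table.
Ankrd1, first site: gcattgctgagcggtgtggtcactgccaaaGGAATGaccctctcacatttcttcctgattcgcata
Ankrd1, second site: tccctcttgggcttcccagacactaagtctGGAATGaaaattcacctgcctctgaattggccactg
Ccn1: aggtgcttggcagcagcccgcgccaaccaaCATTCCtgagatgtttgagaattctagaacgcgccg
In all, 7 of the 15 target genes with a window held the core, and Tgfb2 was among those that did not.

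The M-CAT muscle genes, through which TEAD factors are known to act in the heart, differed among themselves. Myh7, the fetal cardiac myosin heavy chain gene, stood at 73.2 and 52.7 CPM in sham and at 1481 and 698 CPM in TAC (log2 fold change 4.11 ± 0.35, adjusted p = 0.00445, edgeR). Acta1, the skeletal actin gene, stood at 322 and 542 CPM in sham and at 3154 and 2269 CPM in TAC (2.65 ± 0.26, adjusted p = 0.00489). Tnnt2 (0.06) and Ckm (0.11), also with M-CAT elements, were not called (edgeR adjusted p = 0.717 and 0.424), and the sign of both turned with total counts. The window of Myh7 (chr14:54994792-54994857, minus strand, capitals beginning at -201) and that of Tnnt2 (chr1:135836277-135836333, plus strand, at -27) both held the TEAD core, which is shown because the transcripts of these genes differed so much.
Myh7: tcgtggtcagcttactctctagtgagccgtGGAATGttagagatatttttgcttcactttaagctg
Tnnt2: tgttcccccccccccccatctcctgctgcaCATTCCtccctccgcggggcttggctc
The letters were also in a window of Acta1, beginning at -46, and in none of Ckm, so that 3 of these 4 genes held them, of which Myh7 and Acta1 rose.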

How the data were processed

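Cardiomyocyte RNA of 2 sham and 2 TAC hearts had been sequenced, with group and replicate number taken from the sample titles. The deposited files give each of 22322 genes an expected count and an FPKM. The submitters' processing notes name mm10, Bowtie2 2.2.8 and StringTie 1.3.1 without their roles. How reads were counted, and whether by strand, is not stated in the sources used here. The expected counts deposited by the authors were rounded to whole numbers, and the FPKM deposited by the authors were used as given, for levels between genes and for limma. Between 1432 and 1519 counts per library were not whole.

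Genes were filtered with filterByExpr, scaled with TMM and tested with the quasi-likelihood test of edgeR 4.0.16 in R 4.3.3, without a replicate block, with Benjamini-Hochberg adjustment over 12499 genes and a threshold of 0.05. DESeq2 1.42.0, limma 3.58.1 on log2 of FPKM plus 0.1 or 1, other scalings, no filter, a threshold of 0.1, the block and the omission of each library were the alternatives. The code was tested on simulated data. The common biological coefficient of variation was 10.5%, and p-values measure the spread between hearts. Replicates of both groups differed by more than counting noise (chi-square per degree of freedom 9.19 in sham and 31.3 in TAC).

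The 10 genes and all lists were chosen with earlier results of these data known. Named are the 10 and a fixed set of pathway and target genes (Stk3, Stk4, Sav1, Mob1a, Mob1b, Nf2, Vgll2, Vgll3, Ccn1, Ccn2, Ankrd1, Myh7, Acta1, Tnnt2, Ckm). The rule adds every gene of the pathway, target and M-CAT lists called at 0.05, and defining cell type markers. Fat4, Dchs1, Stk38, Fbxw11, Cd163, Fos and Jun fall outside this rule and were named after their values were seen. Totals ran from 24237777 to 32118323 expected counts per library.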

Additional observations from a re-analysis of the deposited data

How the results depend on the processing

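Depth limits Tead2, Tead4, Vgll2 and Vgll3, with 3 to 33 counts in a library. The methods speak of pairs of mice without tying them to the replicate numbers, and same-numbered samples did not deviate together (correlation of same-numbered deviations -0.271). Of the 10 genes, none was called with total counts, with totals without mitochondrial genes or by limma on FPKM. DESeq2 and the fit without a low-count filter called 2, against 8.34% and 10.5% of all genes. The adjusted p under 0.1 called 3, against 14.5%. The replicate block called 1 (Amotl2, adjusted p = 0.0391, edgeR), against 4.53%. The crossed pairing, added after seeing the data, called 2, against 17%. Leaving out 1 library gave 0 to 1 with TMM, and with total counts (also added afterwards) 0 to 4, with 1 for sham 2, 1 for TAC 1 and 4 for TAC 2, where 5.49%, 4.88% and 27.2% of all genes were called. The cause was not tested.

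Of the other pathway genes 1 was called. Total counts, totals without mitochondrial genes, limma with either pseudocount and the replicate block called 0. The adjusted p under 0.1 called 4, against 14.5% of all genes. No filter and the crossed pairing called 5, against 10.5% and 17% of all genes. Leaving out 1 library gave 0 to 4 with TMM and 0 to 16 with total counts, with 16 when TAC 2 was omitted, 2 when sham 2 was, and 0 for either other library. Of the targets 4 were called. With no filter and with the adjusted p under 0.1 the count was 9 (against 10.5% and 14.5% of all genes). With the crossed pairing it was 8 (against 17% of all genes). Leaving out 1 library gave up to 7 with TMM, and 1, 7 and 17 with total counts without sham 1, TAC 1 and TAC 2. Over all genes the count went from 626 to 528 with total counts, 921 by DESeq2, 1676 without the filter, 195 and 214 by limma, 1817 at the adjusted p under 0.1, 566 with the block and 2131 with the crossed pairing, and from 301 to 1336 when 1 library was left out (301 without TAC 1, 1336 without TAC 2).

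Among the named calls, Arhgef17 was lost with limma on FPKM plus 0.1 and plus 1 (adjusted p = 0.096 and 0.0915) and Tgfb2 with limma on FPKM plus 0.1 (adjusted p = 0.0514). Uncalled values that rested on 1 library include Stk3 (-0.285 without sham 1), Vgll3 (-0.260 without TAC 1) and Nf2 (-0.014 without sham 2).

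The sign turned for these log2 fold changes, none of them called. With total counts, limma on FPKM plus 0.1 and limma on FPKM plus 1, in that order, Yap1 was -0.055, -0.039 and -0.037, Tead2 was -0.104, -0.326 and -0.145, Tead3 was -0.168, -0.174 and -0.131, Mob1b was -0.124, -0.177 and -0.148, Tnnt2 was -0.120, -0.127 and -0.126, and Ckm was -0.075, -0.035 and -0.035. Without mitochondrial genes in the totals, Tead2 was -0.013, Tead3 -0.073, Mob1b -0.033 and Tnnt2 -0.035. With the replicate block Tead4 was 0.019. When 1 library was left out, the lowest and highest values were -0.181 and 0.295 for Tead3, -0.644 and 0.832 for Tead4, -0.137 and 0.015 for Vgll4, -0.337 and 0.146 for Mob1a, -0.012 and 0.153 for Mob1b, -0.284 and 0.080 for Ccn1 and -0.012 and 0.148 for Tnnt2. For the Tead1 share of TEAD FPKM and the Yap1 to Wwtr1 ratio the groups did not overlap, so no such omission could turn the direction. The differences ran from 1.84 to 3.89 percentage points and from 0.154 to 0.616 on the log2 scale.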
